A study of Mus musculus with 8 samples.

Results

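Axin2, Lef1, Tcf7, Nkd1, Nkd2, Apcdd1, Myc and Sp5 are 8 genes widely used as transcriptional targets or feedback regulators of Wnt/β-catenin signalling. They were followed in embryonic mouse tooth germs through every probe set that the platform annotation assigns to exactly 1 of them. That rule gave 20 probe sets, out of 45101 on the array, for 7 of the 8 genes, and Tcf7 was not analysed here. Axin2 and Lef1 had 2 probe sets each, Nkd1 and Nkd2 4 each, Apcdd1 6, and Myc and Sp5 1 each. Of the 20 probe sets, 19 passed the filter on low signal, a mean of at least 60.5, and 1 probe set of Apcdd1 lay below it.

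The study addressed the loss of Hedgehog signalling in the developing molar. Pregnant mice of the outbred ICR stock received a single intraperitoneal injection at embryonic day 14, and the embryos' mandibular molar tooth germs were taken 24 h later. The 4 injections were 5E1, a monoclonal IgG1 that binds the ligand Shh (10 mg/kg), 40-1a, an IgG1 against β-galactosidase and so an antibody control (10 mg/kg), cyclopamine, an inhibitor of the Hedgehog transducer Smo (10 mg/kg), and phosphate-buffered saline (PBS, 1 ml). Each group held 2 arrays, which the labels call biological replicates without naming litters or pooling, so the p-values rest on the spread between samples of unstated origin. The injections reached the dam as well as the embryo, the labels give no vehicle for cyclopamine, and whole germs hold both epithelium and mesenchyme.

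In the absence of Wnt ligand, a complex of Axin, APC and GSK3 marks β-catenin for destruction. Ligand binding to Frizzled and LRP receptors stops that complex, and β-catenin enters the nucleus, where it joins TCF/LEF proteins on target genes. Several of those targets act back on the pathway, among them Axin2, the Nkd proteins and Apcdd1. In the tooth, Wnt signalling runs in epithelium and mesenchyme alike, and the enamel knot, the epithelial signalling centre of the cap stage, produces Shh together with Wnt and FGF ligands.

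RefSeq promoter windows of build GRCm38.p6, the 250 bases before a start site, covered 10 start sites of 6 of the 8 genes, with Myc and Apcdd1 not matched. They were searched on both strands for CTTTGAA and CTTTGAT, which are forms of the TCF/LEF core, and for TGGGTGGTC, a GLI motif. CTTTGAA or CTTTGAT occurred in 1 of the 10 windows, that of Sp5, against 7.48% of all 32851 windows of the same length. The GLI motif occurred in 0 of the 10 and in 0.225% of all windows. The Sp5 window, chr2:70474673-70474922 on the plus strand, is shown because it holds the match, in capitals, 104 to 98 bases before the start. Its GC content was 46.0%, against a median of 52.4% over all windows. The Axin2 window, chr11:108920099-108920348 on the plus strand, is shown beside it as that of the most widely used Wnt reporter gene, with a GC content of 69.2% and no match. A match describes letters in the window and not a bound site.
Sp5: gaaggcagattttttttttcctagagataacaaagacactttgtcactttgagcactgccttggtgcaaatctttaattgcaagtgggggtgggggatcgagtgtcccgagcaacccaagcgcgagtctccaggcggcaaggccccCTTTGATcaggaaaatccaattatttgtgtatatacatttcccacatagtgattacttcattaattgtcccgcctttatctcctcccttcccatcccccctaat
Axin2: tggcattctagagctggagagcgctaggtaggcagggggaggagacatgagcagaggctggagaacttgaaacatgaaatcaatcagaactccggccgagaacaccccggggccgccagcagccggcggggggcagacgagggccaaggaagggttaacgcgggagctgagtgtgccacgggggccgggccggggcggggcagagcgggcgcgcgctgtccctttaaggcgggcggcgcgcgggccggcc

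The values are MAS5 signals on a linear, arbitrary scale, in which the trimmed mean of every array was the same, 499.9. Differences below are on the log2(signal + 9) scale, with the standard error (SE) of the limma fit to all 8 arrays. With 8 arrays in 4 groups there were 4 residual degrees of freedom. The limma gene fit added prior ones, for a total of 7.75. The arrays fell into 3 clusters that cut across the injections. The first held replicate 1 of 5E1, 40-1a and PBS, the next held replicate 2 of 5E1, 40-1a and cyclopamine, and the last held cyclopamine replicate 1 and PBS replicate 2. Cyclopamine replicate 1 also had a mean signal of 2548 on the 18S ribosomal control probe sets, against 52.9 to 448 on the other arrays. Defining markers of dental epithelium, dental mesenchyme and the enamel knot were above the filter signal on at least 1 array for every measured gene of those lists. The Hedgehog receptor and target Ptch1 stood at 2122 and 1553 after 5E1, 11322 and 7180 after 40-1a, 9683 and 5793 after cyclopamine, and 9611 and 8474 after PBS. Its difference was −2.31 (SE 0.30) for 5E1 minus 40-1a and −0.27 (SE 0.30) for cyclopamine minus PBS, and that of Gli1, the other gene used to check the injections, was −2.22 (SE 0.40) and 0.08 (SE 0.40). Both 5E1 arrays were below all others for both genes, which did not pass the threshold in limma (adjusted p of 0.968 and 1.00). With the array clusters as a block both passed (adjusted p of 0.00102 and 0.00159), and with the replicate number as a block Ptch1 passed (0.00519).

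The antibody comparison asked whether Wnt target genes changed when Shh was blocked. None of the 7 genes changed past the threshold between 5E1 and 40-1a, and the genes did not share a direction. Apcdd1, Myc, Sp5, Nkd1 and Lef1 were higher after 5E1 and Axin2 and Nkd2 lower, with a median difference of 0.30 against −0.01 over all 12999 genes tested. Higher values were found for 46.6% of all genes. By an adjusted p of 0.05 in limma, 0 of 7 members were called, as were 0.0% of all genes. At an unadjusted p under 0.05 the count was 2 of 7, Apcdd1 and Myc, where 1.22% of all genes met that mark. The 2 arrays of 5E1 lay wholly above those of 40-1a for the same 2 members, as they did for 8.65% of all genes, and wholly below for 0 of 7, against 10.8%.

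**Figure D1:**
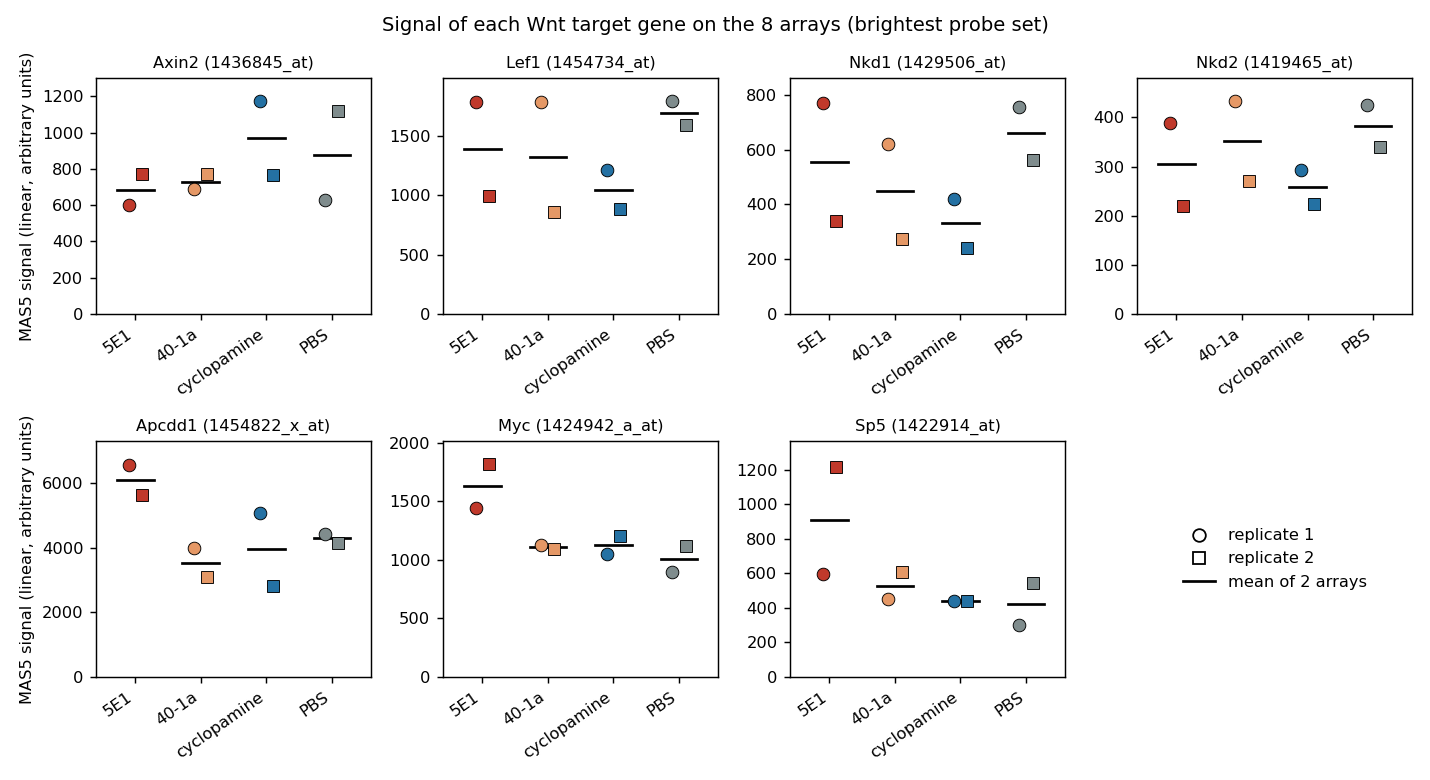
MAS5 signal (linear, arbitrary units) of the brightest probe set of each of the 7 genes, by injection; circles are replicate 1, squares replicate 2 and bars the mean of 2 arrays. Apcdd1 and Myc have both 5E1 arrays above all other arrays, while Lef1, Nkd1 and Nkd2 have replicate 2 below replicate 1 in every group.

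Myc encodes the transcription factor that drives growth and proliferation in many Wnt-dependent tissues. Its signal was 1444 and 1820 after 5E1, 1123 and 1090 after 40-1a, 1048 and 1204 after cyclopamine, and 896 and 1120 after PBS. Both 5E1 arrays were therefore the highest of the 8, and the other groups overlapped each other. Group means were 1632 ± 266 (SD, n = 2) for 5E1, 1126 ± 110 for cyclopamine, 1107 ± 24.0 for 40-1a and 1008 ± 158 for PBS. Myc was higher by 0.55 (SE 0.19, 95% interval 0.10 to 0.99) in 5E1 than in 40-1a, a 1.46-fold difference with an unadjusted p of 0.0224 and an adjusted p of 1.00 in limma. The gap between the lower 5E1 array and the highest other array was 0.26 on the log2 scale. Both 5E1 arrays lay above the other 6 for 1.84% of the 27000 probe sets tested, 496 in number, and Myc had the 41st largest gap of these.

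Sp5, a zinc-finger factor of the Sp family and a direct TCF/LEF target whose window is printed above, had a wide spread between the 5E1 replicates. Its signal was 597 and 1218 after 5E1, 451 and 605 after 40-1a, 439 and 440 after cyclopamine, and 300 and 546 after PBS. The 5E1 replicate 2 array was alone above the rest, and the lower 5E1 array lay between the 40-1a arrays. The means were in the order 5E1 (907 ± 439, SD, n = 2), 40-1a (528 ± 109), cyclopamine (439 ± 0.21) and PBS (423 ± 173), and only the 40-1a and cyclopamine neighbours did not overlap. Sp5 was higher by 0.70 (SE 0.39, 95% interval −0.21 to 1.61) in 5E1 than in 40-1a, with an unadjusted limma p of 0.114. Without 5E1 replicate 2 the difference was 0.19, and without 5E1 replicate 1 it was 1.21.

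Apcdd1, a membrane-bound inhibitor that binds Wnt ligand and LRP5, was read by 6 probe sets, and they did not all share a direction. On the brightest, 1454822_x_at, the signal was 6579 and 5637 after 5E1, 3983 and 3100 after 40-1a, 5091 and 2821 after cyclopamine, and 4433 and 4157 after PBS. Both 5E1 arrays were the highest of the 8 on this probe set. The means were 6108 ± 666 (SD, n = 2) for 5E1, 4295 ± 195 for PBS, 3956 ± 1605 for cyclopamine and 3541 ± 624 for 40-1a, and neighbours among the 3 lower groups overlapped. The difference between 5E1 and 40-1a was 0.79 (SE 0.27, 95% interval 0.16 to 1.42), or 1.73-fold, with an unadjusted p of 0.0198 and an adjusted p of 1.00 in limma. Leaving out 1 array at a time gave 0.61 to 0.97, and the mean of all 6 probe sets gave 0.32.

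Across the other Apcdd1 probe sets, 1418382_at, 1418383_at and 1449070_x_at were also higher in 5E1 than in 40-1a, by 0.55, 0.51 and 0.47. On 1418382_at the signal was 2119 and 2628 after 5E1 and 1488 and 1746 after 40-1a, and on 1418383_at it was 1030 and 1411 against 806 and 885. The 2 groups did not overlap on either of these, and on 1449070_x_at they did, at 3641 and 5665 against 2623 and 4085. The probe set 1437604_x_at went the other way, with 1060 and 1703 after 5E1 and 1722 and 1634 after 40-1a, a difference of −0.32 (SE 0.25) that was 0.02 without 5E1 replicate 1. The probe set 1443639_at was below the filter, at 30.6 to 113 over the 8 arrays, and its difference was −0.05. In all, 4 of 6 Apcdd1 probe sets were higher in 5E1, as were 46.5% of all probe sets tested, and 3 of these lay wholly above 40-1a, as did 9.14%. The letter x in a name marks probe sets whose probes may also match other genes, which is the case for 3 of the 6 here, the brightest included, and what those probes bind was not tested.

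Axin2, a scaffold protein of the destruction complex that is itself induced by Wnt signalling almost everywhere, was not higher after 5E1. Its brightest probe set, 1436845_at, read 600 and 769 after 5E1, 690 and 769 after 40-1a, 1173 and 764 after cyclopamine, and 629 and 1119 after PBS. The highest 2 arrays were the cyclopamine and PBS arrays that cluster together, and every pair of injections overlapped. The means were in the order cyclopamine (969 ± 289, SD, n = 2), PBS (874 ± 347), 40-1a (729 ± 56.3) and 5E1 (685 ± 119). Axin2 differed by −0.10 (SE 0.32, 95% interval −0.84 to 0.64) between 5E1 and 40-1a and by 0.17 (SE 0.32, 95% interval −0.57 to 0.91) between cyclopamine and PBS. The dimmer probe set, 1421341_at, read 80.1 and 107 after 5E1, 125 and 121 after 40-1a, 62.4 and 104 after cyclopamine, and 64.7 and 212 after PBS. It was lower by 0.38 (SE 0.53) in 5E1 than in 40-1a without overlap, and its cyclopamine difference of −0.50 (SE 0.53) had the opposite sign to that of the brighter probe set.

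The cyclopamine comparison followed the same genes after the Smo inhibitor. Ptch1 and Gli1, used to check the injections, overlapped PBS there, at −0.27 (SE 0.30) and 0.08 (SE 0.40). A block of Hedgehog signalling was thus not seen on these check genes. On a wider list of Hedgehog targets, 8 of 9 tested genes were lower in cyclopamine than in PBS (median −0.46). Gli1 was the 1 that was higher. Of the 9, 2 lay wholly below PBS, against 14.4% of all genes. In 40-1a minus PBS 8 of 9 were lower as well (median −0.17), and 0 passed by adjusted p in either comparison. Of the members, again 0 of 7 changed past the threshold, as did 0.0% of all genes. The smallest adjusted p of any gene was 0.982 in limma. At an unadjusted p under 0.05 there were 0 of 7 members, against 1.58% of all genes. Lef1, Nkd1 and Nkd2 had both cyclopamine arrays below both PBS arrays, 3 of 7 genes against 14.4% of all genes, and 0 of 7 lay wholly above, against 17.8%. Apcdd1 was lower by 0.18 with overlap, and Axin2, Myc and Sp5 were higher by 0.17, 0.16 and 0.11. The median over the 7 genes was −0.18, against 0.02 over all genes, of which 53.1% were higher.

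Nkd1 encodes Naked cuticle 1, a cytoplasmic protein that binds Dishevelled and dampens Wnt signalling. On 1429506_at, its brightest probe set, the signal was 421 and 242 after cyclopamine, 755 and 563 after PBS, 770 and 338 after 5E1, and 620 and 275 after 40-1a. Cyclopamine and PBS did not overlap, but each antibody group overlapped both of them. The means were 659 ± 136 (SD, n = 2) for PBS, 554 ± 305 for 5E1, 448 ± 244 for 40-1a and 332 ± 126 for cyclopamine, with overlap between each pair of neighbours. Nkd1 was lower by 2.01-fold in cyclopamine than in PBS, a log2 difference of −1.01 (SE 0.50, 95% interval −2.18 to 0.16) with an adjusted p of 0.982 in limma. Nkd1 was the 1 of 7 at least 2-fold lower without overlap, against 0.646% of all genes. Leaving out 1 array at a time gave −1.40 to −0.62. Between the cyclopamine and PBS arrays of the same cluster the difference was −0.41, and with the array clusters as a block it was −0.43.

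The probe set of Nkd1 with the widest cyclopamine difference was 1429507_at. It read 54.8 and 43.2 after cyclopamine, 159 and 181 after PBS, 164 and 137 after 5E1, and 184 and 107 after 40-1a. Both cyclopamine arrays were the lowest of the 8 and lay under the filter signal of 60.5, while the other 3 groups overlapped. The difference was −1.63 (SE 0.35, 95% interval −2.43 to −0.82), with an unadjusted p of 0.00161 and an adjusted p of 0.980 in limma, and the range over left-out arrays was −1.77 to −1.48. Within the cluster that holds cyclopamine replicate 1 and PBS replicate 2 it was −1.57. The remaining Nkd1 probe sets, 1417278_a_at and 1440446_at, differed by −0.28 (SE 0.30) and −0.29 (SE 0.36) with overlap, so all 4 had the same sign and 2 of 4 lay wholly below PBS, as did 17.5% of all probe sets tested. In 5E1 minus 40-1a the 4 were between 0.09 and 0.30, and all overlapped.

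Nkd2, the paralogue of Nkd1, was lower in cyclopamine than in PBS on all 4 of its probe sets. On the brightest, 1419465_at, the signal was 294 and 224 after cyclopamine, 425 and 340 after PBS, 389 and 220 after 5E1, and 433 and 271 after 40-1a. The cyclopamine and PBS arrays did not overlap, and the means were 383 ± 60.04 (SD, n = 2) for PBS, 352 ± 115 for 40-1a, 304 ± 120 for 5E1 and 259 ± 49.0 for cyclopamine, with overlap between neighbours. The difference was −0.55 (SE 0.35, 95% interval −1.37 to 0.27) in that comparison, and −0.19 with the array clusters as a block. It was −0.78, −0.46 and −0.12 on 1419466_at, 1434275_at and 1457600_x_at, and 2 of 4 probe sets lay wholly below PBS, against the same 17.5%. Between 5E1 and 40-1a the brightest probe set differed by −0.22 (SE 0.35) while the other 3 were higher by 0.08 to 0.46, all with overlap. On 1419466_at, the most variable, single arrays ran from 69.1 to 320.

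Lef1 encodes a DNA-binding partner of β-catenin, is itself a Wnt target, and is required for tooth development. Its brightest probe set, 1454734_at, read 1208 and 880 after cyclopamine, 1789 and 1594 after PBS, 1780 and 995 after 5E1, and 1783 and 860 after 40-1a. Cyclopamine lay below PBS without overlap, and both antibody groups overlapped all others. The means were 1691 ± 138 (SD, n = 2) for PBS, 1388 ± 555 for 5E1, 1321 ± 653 for 40-1a and 1044 ± 232 for cyclopamine. The difference was −0.71 (SE 0.39, 95% interval −1.61 to 0.19) for cyclopamine minus PBS and 0.10 (SE 0.39) for 5E1 minus 40-1a. With the array clusters as a block the cyclopamine difference of this probe set was −0.27.

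The dimmer Lef1 probe set, 1421299_a_at, which by its suffix recognises several transcripts of the gene, separated the cyclopamine group. It read 206 and 214 after cyclopamine, 469 and 410 after PBS, 520 and 463 after 5E1, and 453 and 365 after 40-1a. The cyclopamine arrays, which fall in different clusters, were the lowest of the 8 and differed by less than any other pair of replicates on this probe set. The difference from PBS was −1.03 (SE 0.23, 95% interval −1.56 to −0.50), with an unadjusted p of 0.00204 and an adjusted p of 0.980 in limma. It ranged from −1.13 to −0.94 over left-out arrays and was −0.96 between cyclopamine replicate 1 and PBS replicate 2. In the antibody comparison the same probe set was higher in 5E1 by 0.27 (SE 0.23), without overlap.

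Both cyclopamine arrays lay below the other 6 for 4.45% of the 27000 probe sets tested, or 1201. Lef1 1421299_a_at and Nkd1 1429507_at were among them. Ordered by the gap to the nearest other array, the Lef1 probe set was 14th, with a gap of 0.75. The size of the Nkd1 difference rests on signals under the filter and was −1.78 with a pseudocount of 1 and −1.15 with 50. On the other Lef1 probe set and the other 3 of Nkd1 the cyclopamine arrays overlapped those of the antibody groups. Cyclopamine replicate 1, with its high 18S signal and high 3′ to 5′ ratios, is 1 of the 2 arrays behind each value. Without it the differences from PBS were −1.77 for Nkd1 1429507_at and −1.01 for Lef1 1421299_a_at.

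**Figure D2:**
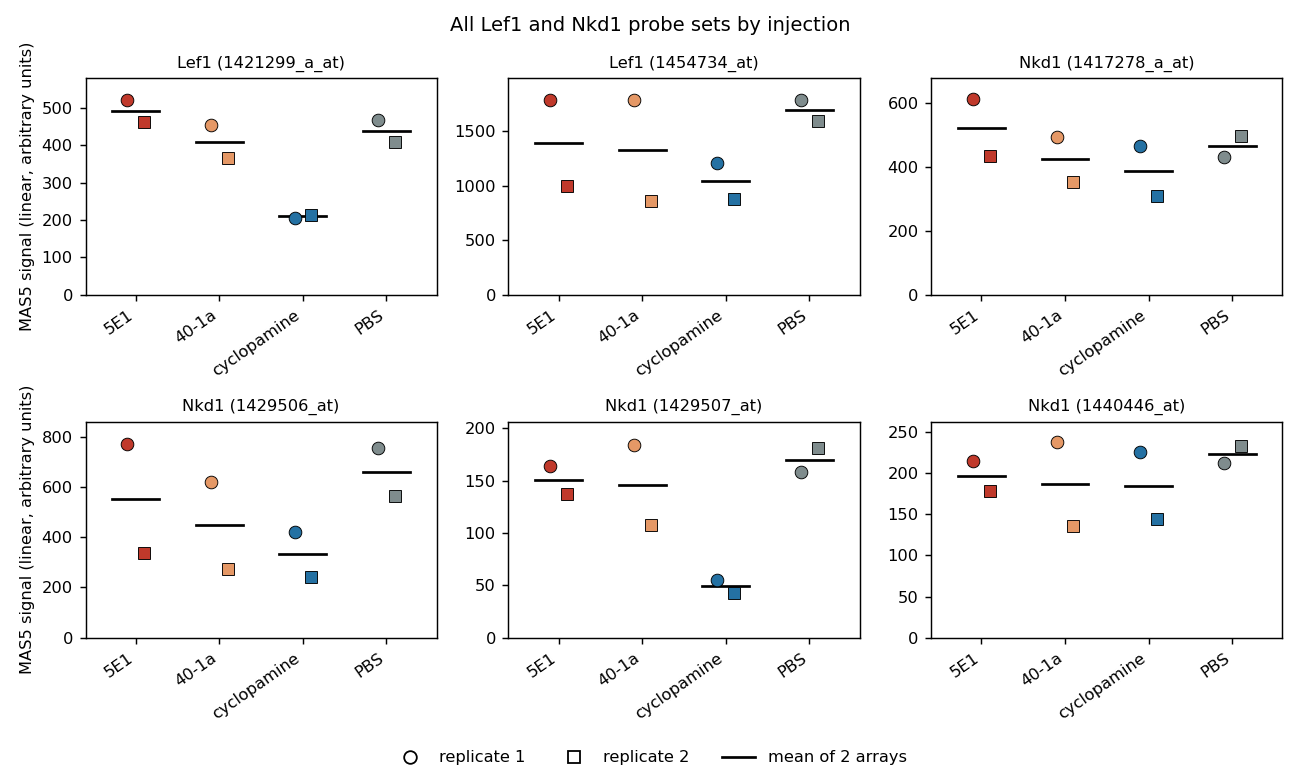
MAS5 signal (linear, arbitrary units) of the 2 Lef1 and 4 Nkd1 probe sets by injection; circles are replicate 1, squares replicate 2 and bars the mean of 2 arrays. Both cyclopamine arrays are the lowest of the 8 on Lef1 1421299_a_at (206 and 214) and Nkd1 1429507_at (54.8 and 43.2), and not on the other 4.

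Of the 19 probe sets tested, 15 were higher and 4 lower in 5E1 than in 40-1a, and 4 were higher and 15 lower in cyclopamine than in PBS. Among all probe sets tested, 46.5% and 46.3% were higher in these comparisons. The antibody arrays did not overlap on 5 of 19 in the higher direction (9.14% of all probe sets) and 1 of 19 in the lower (11.3%). The cyclopamine and PBS arrays did not overlap on 0 of 19 in the higher direction (14.8%) and 6 of 19 in the lower (17.5%). Probe sets of a gene share their transcript, and those of different genes share the arrays, so these counts are not counts of independent measurements. An unadjusted limma p under 0.05 was reached by 3 of 19 for the antibody (1.03% of all probe sets), Apcdd1 1418382_at, Apcdd1 1454822_x_at and Myc, and by 2 of 19 for cyclopamine (2.57%). By adjusted p, 0 of 19 passed in either comparison, as did 0.0% of all probe sets.

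**Figure D3:**
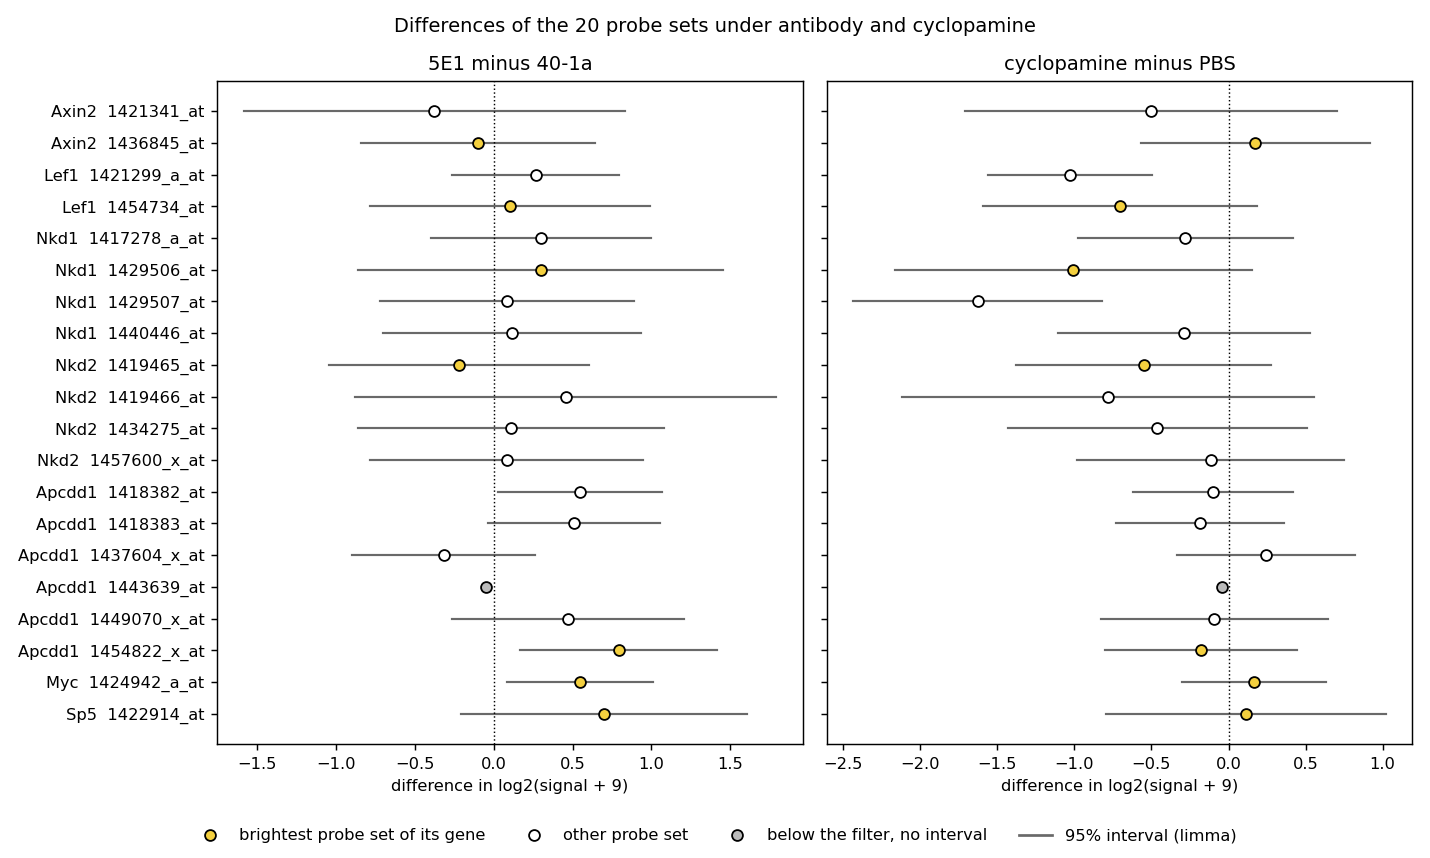
Difference in log2(signal + 9) of each of the 20 probe sets for 5E1 minus 40-1a (left) and cyclopamine minus PBS (right); yellow points are the brightest probe set of a gene, white points the others, the grey point the probe set below the filter, and lines the 95% interval of limma. Intervals that do not reach 0 on the right belong to Lef1 1421299_a_at and Nkd1 1429507_at, and on the left to Apcdd1 1418382_at and 1454822_x_at and Myc.

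The control antibody was compared with saline as the background of an antibody injection. Of the 7 genes, 2 were higher and 5 lower in 40-1a than in PBS, with a median of −0.20, and 49.3% of all genes were higher. On the brightest probe sets Apcdd1 alone did not overlap (−0.29, SE 0.27). That was 1 of 7 in the lower direction against 10.8% of all genes, with 0 of 7 in the higher direction against 9.69%. Its probe sets were divided, with 4 of 6 lower and 1437604_x_at wholly above PBS (0.37, SE 0.25). For Nkd2, the 40-1a arrays lay wholly below PBS on 1434275_at (−0.42, SE 0.42). The other differences on the brightest probe sets were −0.64 for Nkd1, −0.44 for Lef1, −0.20 for Axin2, −0.15 for Nkd2, 0.14 for Myc and 0.36 for Sp5. That of Nkd1 ran from −1.22 to −0.07 over left-out arrays. By adjusted p 0 of 7 passed in limma, as did 0.0% of all genes, and 0 of 7 had an unadjusted p under 0.05, against 0.677%.

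The 5E1 arrays were also set against PBS, which repeats the 5E1 arrays of the antibody comparison and the PBS arrays of the cyclopamine comparison. Sp5 was higher by 2.08-fold, a log2 difference of 1.06 (SE 0.39, 95% interval 0.15 to 1.96; unadjusted limma p of 0.0279). Myc was higher by 0.69 (SE 0.19, 95% interval 0.24 to 1.14; unadjusted limma p of 0.00758) and Apcdd1 by 0.50 (SE 0.27). On the brightest probe sets these 3 of 7 lay wholly above PBS, against 9.95% of all genes, and 0 of 7 lay wholly below, against 12.4%. For Apcdd1 this held on 1 of its 6 probe sets, and all 6 were higher, by 0.06 to 0.50. Sp5 was the 1 of 7 at least 2-fold higher without overlap, against 0.269% of all genes. Lef1, Nkd1, Nkd2 and Axin2 differed by −0.34, −0.35, −0.37 and −0.30 with overlap, so 3 of 7 were higher, against 47.3% of all genes. Dimmer probe sets could differ in sign, with Lef1 1421299_a_at at 0.16, 1 of 4 higher for Nkd1 and 2 of 4 for Nkd2. The 2 members with an unadjusted p under 0.05 compare with 1.48% of all genes, and 0 of 7 passed by adjusted p, as did 0.0% of all genes. Without 5E1 replicate 2 the Sp5 difference was 0.55 and that of Myc 0.52.

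Whether the antibody and the inhibitor differed in effect was tested directly, as the antibody difference minus the cyclopamine difference. It was above 0 for 6 of the 7 genes, at 1.31 (SE 0.71) for Nkd1, 0.97 (SE 0.38) for Apcdd1, 0.81 (SE 0.55) for Lef1, 0.58 for Sp5, 0.38 for Myc and 0.33 for Nkd2, and −0.27 for Axin2. Leaving out 1 array at a time gave 0.72 to 1.89 for Nkd1, 0.55 to 1.40 for Apcdd1, 0.29 to 1.33 for Lef1, 0.075 to 1.09 for Sp5 and 0.22 to 0.55 for Myc, and the mean of the Apcdd1 probe sets gave 0.38. Values above 0 were found for 45.2% of all genes. The unadjusted p was under 0.05 for 1 of 7, Apcdd1 (95% interval 0.08 to 1.86; p of 0.0358 in limma), and for 1.44% of all genes. By adjusted p 0 of 7 passed, as did 0.0% of all genes. Of the probe sets whose cyclopamine arrays stood lowest, described above for that reason, Lef1 1421299_a_at had a value of 1.30 (SE 0.33) and Nkd1 1429507_at of 1.71 (SE 0.49).

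Several members also differed between replicates in the same direction in each group. In all 4 groups replicate 2 was below replicate 1 on the brightest probe sets of Lef1, Nkd1, Nkd2 and Apcdd1, and above it for Sp5, while Axin2 and Myc were higher in replicate 2 in 3 groups and lower in 1. For Nkd1 the difference of replicate 2 from replicate 1 was −1.17 in 5E1, −1.14 in 40-1a, −0.77 in cyclopamine and −0.42 in PBS, while its antibody difference was 0.30. For Sp5 it was 1.02, 0.42, 0.00 and 0.84, so its cyclopamine arrays were level. The labels give no order or pairing to these numbers. The Apcdd1 probe sets were divided, with replicate 2 above replicate 1 in all 4 groups on 1449070_x_at, the reverse of 1454822_x_at, and in 3 of 4 on 1418382_at and 1418383_at.

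On the arrays of the first 2 clusters, marker genes of the tissues a dissected germ can hold moved with these patterns. The summed signal of 16 dental mesenchyme genes was 106193 to 112623 on the 3 arrays of the first cluster, where Lef1, Nkd1 and Nkd2 were high, and 54639 to 72123 on the replicate 2 arrays of 5E1, 40-1a and cyclopamine, where they were low. The summed signal of 10 endothelial genes was 4746 to 5613 and 2832 to 3730 on the same arrays. Sums of 16 dental epithelium genes ran the other way, from 88686 to 90640 and from 144921 to 150406, as did 13 suprabasal oral epithelium genes, from 23852 to 42583 and from 66858 to 94397. Cyclopamine replicate 1 and PBS replicate 2, which form the last cluster, had level dental mesenchyme sums of 97488 and 97312. There Lef1 read 1208 and 1594, Nkd1 421 and 563, and Nkd2 294 and 340. No defining marker of these lists was below the filter signal on all arrays. In these bulk samples, fewer cells of a type and less RNA per cell cannot be told apart. The part of tissue make-up in the member differences was not tested.

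**Figure D4:**
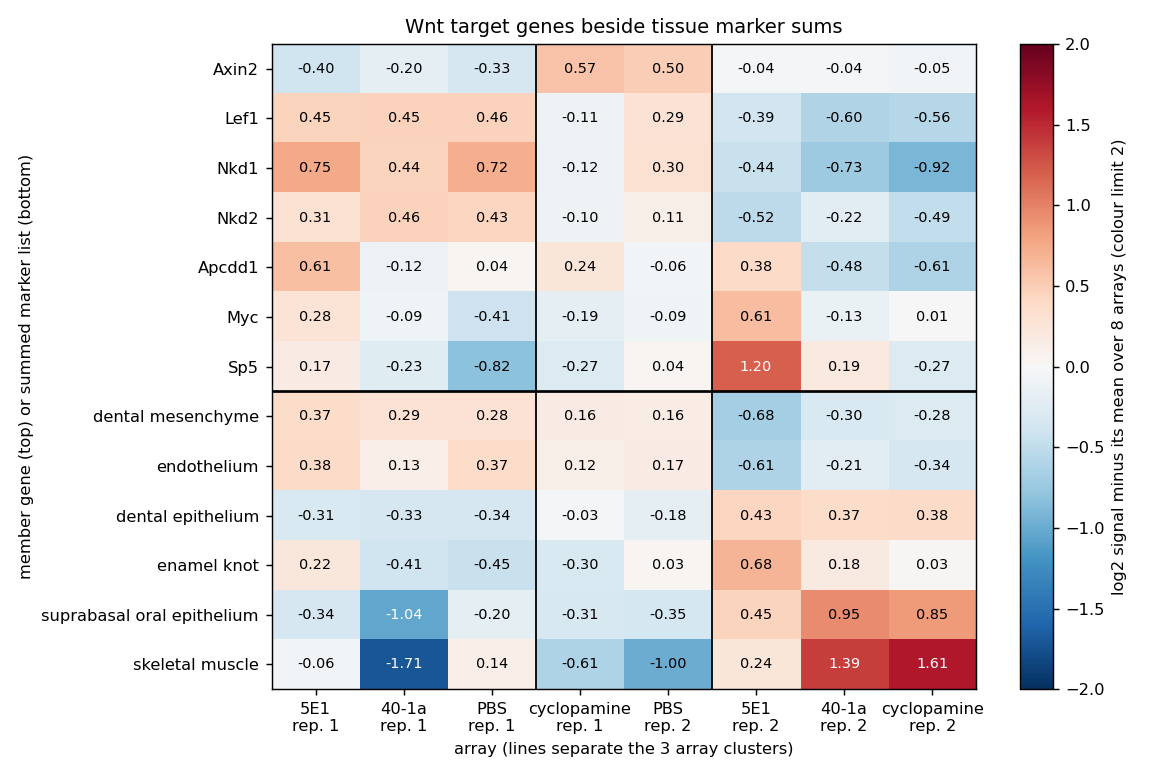
Log2 signal minus its mean over the 8 arrays, for the brightest probe set of the 7 genes (top) and the summed signal of 6 marker lists (bottom), with arrays ordered by cluster and the colour scale ending at 2 in either direction. Lef1, Nkd1, Nkd2, dental mesenchyme and endothelium are above their mean on the 3 left arrays and below it on the 3 right arrays, and dental epithelium the reverse.

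Beside the cyclopamine differences, the marker lists moved as well. In cyclopamine minus PBS 15 of 16 dental mesenchyme genes were lower (median −0.34), 9 of 10 endothelial genes were lower (median −0.41), 15 of 16 dental epithelium genes were higher (median 0.43), and 16 of 16 skeletal muscle genes were higher (median 1.09). None of these genes passed by adjusted p. The summed skeletal muscle signal was 4285 and 19926 after cyclopamine and 7200 and 3277 after PBS, so these groups overlapped. It was 1998 and 17106 after 40-1a and 6268 and 7732 after 5E1. The comparisons with PBS of the antibodies ran alike. Dental mesenchyme genes were lower for 16 of 16 in 5E1 (median −0.73) and in 40-1a (median −0.38). Endothelial genes were lower for 10 of 10 (medians −0.32 and −0.38), and dental epithelium genes higher for 16 of 16 (medians 0.30 and 0.23). Skeletal muscle genes were higher for 15 of 16 in 5E1 (median 0.50) and 13 of 16 in 40-1a (median 0.28). Beside the higher Apcdd1, Myc and Sp5 after 5E1, 12 of 12 tested enamel knot genes were higher in 5E1 than in 40-1a (median 0.61), against 46.6% of all genes, and 8 of them lay wholly above, against 8.65%. None of the 12 passed by adjusted p. The summed enamel knot signal was 13585 and 18632 on the 5E1 arrays and 8549 to 13215 on the other 6. Dental mesenchyme genes were lower in that comparison for 14 of 16 (median −0.22).

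The rest of the Wnt pathway was followed through 6 lists, and 0 of their genes passed by adjusted p in limma in the antibody or the cyclopamine comparison. Of the Wnt ligands, 5 were higher and 8 lower in 5E1 than in 40-1a (median −0.05), from Wnt10b, a ligand of the enamel knot, at 0.85 (SE 0.47) to Wnt9a at −0.67 (SE 0.40). Receptors, co-receptors and their modulators split into 10 higher and 11 lower (median −0.01). The highest was Lrp4, a receptor that binds Wnt inhibitors, which read 404 and 452 after 5E1 and 284 and 293 after 40-1a (0.55, SE 0.20), and the lowest Rspo2, a secreted amplifier of Wnt signalling (−0.85, SE 0.37). Components of the destruction complex split into 3 higher and 11 lower (median −0.06), from the tankyrase Tnks at 0.13 (SE 0.18) to the kinase Gsk3a at −0.31 (SE 0.17). Nuclear factors split into 5 higher and 9 lower (median −0.05), from Tcf7l2, a DNA-binding relative of Lef1, at 0.26 (SE 0.48) to the co-repressor Tle2 at −0.47 (SE 0.37).

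Secreted Wnt inhibitors held the antibody difference farthest from 0 among the 6 lists. Sostdc1, which binds LRP co-receptors and BMPs and limits tooth number, read 5146 and 4400 after 5E1, 12303 and 9416 after 40-1a, 10765 and 7871 after cyclopamine, and 11943 and 11923 after PBS. Both 5E1 arrays were below all others, and the difference from 40-1a was −1.18 (SE 0.20), with an unadjusted p of 0.000386 and an adjusted p of 1.00 in limma. With the array clusters as a block its adjusted p was 0.0157. Dkk4, an inhibitor that is made in the enamel knot and is itself a Wnt target, was higher by 0.64 (SE 0.32), at 244 and 427 against 224 and 188. In all, 4 inhibitors were higher and 9 lower in 5E1 than in 40-1a (median −0.08), and 2 higher and 11 lower in cyclopamine than in PBS (median −0.43).

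Of 20 other genes listed as Wnt targets, 13 were higher and 7 lower in 5E1 than in 40-1a (median 0.13), and 9 higher and 11 lower in cyclopamine than in PBS (median −0.07). The highest was Fgf20, a growth factor of the enamel knot, which read 325 and 779 after 5E1 and 168 and 303 after 40-1a (1.12, SE 0.50), and the lowest Sox9, a transcription factor of cartilage and epithelial progenitors (−0.77, SE 0.48). Fgf20, Wnt10b and Dkk4 stand on the enamel knot list too. In cyclopamine minus PBS these 3 genes differed by 0.00, −0.15 and −0.18.

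The genes whose 8-array profile was most like each member are given as a description, since the arrays fall into clusters that any pair of genes can share. For Lef1 and Nkd1 these were the same genes, Elk3, an ETS-family factor, and Cnrip1, with Pearson's r of 0.986 and 0.989 for Lef1 and 0.993 and 0.984 for Nkd1. Nkd2 was nearest to Sgtb (0.981) and Pdpr (0.977), and Axin2 to Ip6k1 (0.991) and Samd14 (0.987). Apcdd1 was nearest to Rasl11b (0.971) and Sh3rf1 (0.961), and Sp5 to Thyn1 (0.975) and Gm9918 (0.953). Myc was nearest to Kdm3a, a histone demethylase (0.953), and Fgf9, a growth factor on the enamel knot list (0.952). Spearman's rho over the 8 arrays lay between 0.833 and 1 for these 14 pairs.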

How the data were processed

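RNA from mandibular molar tooth germs was hybridised to 8 Affymetrix mouse arrays, 2 per injection. The deposited values are MAS5 intensity per probe set, linear and scaled by array, per the submitters' processing notes; the software version is not given in the sources used here. Genes were named from the platform annotation of 2016, which gave exactly 1 gene for 34945 of 45101 probe sets. Values were taken as log2(signal + 9), 9 being the rounded 10th percentile. Per gene, the probe set with the highest mean was used, and genes with a mean under the 40th percentile over probe sets (signal 60.5) were left out, which left 12999 genes. limma 3.58.1 in R 4.3.3 fitted the 4 group means to all 8 arrays (lmFit, contrasts.fit, eBayes with a trend), with Benjamini-Hochberg adjustment over all genes and a threshold of 0.05. The same fit was made on 27000 probe sets, so a probe set's SE can differ slightly from its gene's. The gene fit was tested on simulated data with independent noise on each array, which lacked the array clusters of the real data.

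Named genes are all members with every probe set, from each of 6 Wnt lists the genes with the largest and smallest antibody difference, the 2 genes most like each member, and Ptch1 and Gli1. Members and lists were chosen with earlier results of these data known. Alternatives changed the scaling, pseudocount, filter, probe set rule, blocks, variance trend and groups fitted, and left out each array. Promoter sequences are RefSeq's, GRCm38.p6.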

Additional observations from a re-analysis of the deposited data

Results flagged for a closer look

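Lef1, on the probe set 1421299_a_at, was higher after 5E1 than after 40-1a on both arrays (520 and 463 against 453 and 365) and lower after cyclopamine than after PBS on both (206 and 214 against 469 and 410). It drew attention because its values went in opposite directions under the 2 agents without overlap, as on no other of the 20 member probe sets, though neither difference passed by adjusted p in limma (1.00 and 0.980). The share of all probe sets with such a pattern was not counted. Against PBS the 5E1 arrays overlapped on this probe set (0.16, SE 0.23). The antibody difference minus the cyclopamine difference was 1.30 (SE 0.33), which restates the values that drew attention and is given without a test. On the other Lef1 probe set it was 0.81 (SE 0.55), and there the antibody arrays overlapped.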

How the results depend on the processing

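With 2 arrays per group, intervals of the member differences were often wider than the differences. Beside leaving out each of 8 arrays, 12 alternatives were run, and 0 members passed by adjusted p in any of them. Of 35 member differences 16 kept their direction throughout, and 34 of 693 values reversed. Genes called at least 2-fold apart without overlap numbered 86 for 5E1 minus 40-1a, 136 for 5E1 minus PBS, 54 for 40-1a minus PBS and 123 for cyclopamine minus PBS, against 0 by adjusted p. Among members this rule took 1 for 5E1 minus PBS (Sp5) and 1 for cyclopamine minus PBS (Nkd1).

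Arrays of the same replicate number had deviations from their group means with r across genes of 0.592 for 5E1 and 40-1a, 0.410 for 5E1 and PBS, 0.348 for 40-1a and PBS, 0.333 for 40-1a and cyclopamine, 0.324 for 5E1 and cyclopamine and 0.00164 for cyclopamine and PBS, and the labels name no pairing. The replicate block gave 1 gene past the threshold, Ptch1, for 5E1 minus 40-1a and 1, Ptch1, for 5E1 minus PBS, and changed no other call. The block of array clusters, which were found on the same values, gave 3 genes for 5E1 minus 40-1a (Ptch1, Gli1, Sostdc1), 2 for 5E1 minus PBS (Ptch1, Gli1) and 3 for the difference between the effects (Ptch1, Gli1, Fos). Genes outside the naming rule, such as Fos, were named after their values were seen.

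Under the array cluster block these differences reversed: Apcdd1 to 0.0065 and Axin2 to 0.095 and Nkd2 to 0.049 for 40-1a minus PBS, Apcdd1 to 0.032 and Sp5 to −0.26 for cyclopamine minus PBS, Nkd1 to 0.033 for 5E1 minus PBS, and Nkd2 to −0.031 for the difference between the effects. With the mean of a gene's probe sets, Axin2 reversed to −0.17 for cyclopamine minus PBS and Nkd2 to 0.11 for 5E1 minus 40-1a. The cause was not tested.

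Leaving out 1 array reversed other values, given as ranges. For 5E1 minus 40-1a they were −0.27 to 0.078 for Axin2, −0.42 to 0.63 for Lef1, −0.29 to 0.88 for Nkd1 and −0.62 to 0.18 for Nkd2. For cyclopamine minus PBS they were −0.60 to 0.25 for Apcdd1, −0.24 to 0.58 for Axin2 and −0.31 to 0.53 for Sp5. For 40-1a minus PBS they were −0.61 to 0.21 for Axin2, −0.97 to 0.078 for Lef1, −0.018 to 0.30 for Myc, −0.48 to 0.18 for Nkd2 and −0.062 to 0.78 for Sp5. For 5E1 minus PBS they were −0.71 to 0.11 for Axin2, −0.76 to 0.076 for Lef1, −0.93 to 0.24 for Nkd1 and −0.77 to 0.033 for Nkd2. For the difference between the effects they were −0.68 to 0.14 for Axin2 and −0.070 to 0.73 for Nkd2.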
